A study of Mus musculus with 7 samples.

Results

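The glucose transport and glycolysis isoforms are 10 genes of the route from glucose uptake to lactate, chosen by gene symbol from a table of 53460 genes: *Slc2a1*, *Slc2a4*, *Hk1*, *Hk2*, *Pfkm*, *Pfkp*, *Pfkfb2*, *Pkm*, *Ldha* and *Ldhb*. All 10 were found, and all 10 were among the 12391 genes with a mean of at least 1 FPKM (fragments scaled by transcript length and library size), which were tested. RNA was sequenced from hearts of C57BL/6 mice (C57BL/6Ncr in the protocol, males of a C57BL/6NCrSlc background by the study's methods), 3 in the TAC group and 4 in the TAC + EMPA group. Every animal underwent transverse aortic constriction (TAC), which overloads the left ventricle with pressure, and all were labelled 14 weeks old. The TAC + EMPA group also received empagliflozin (EMPA), an SGLT2 inhibitor, in chow for 5 days starting 2 weeks after the operation, at 0.03% of the chow by the study's methods. TAC was done at 12 weeks of age by the labels and at 9 weeks by the study's methods. A sham group was not analysed here, so no value below compares a loaded with an unloaded heart.

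Cardiac muscle takes up glucose through GLUT4 (*Slc2a4*), which insulin and contraction bring to the cell surface, and through GLUT1 (*Slc2a1*), which sits there without such a signal. Hexokinase traps the sugar as glucose 6-phosphate, phosphofructokinase commits it to glycolysis, pyruvate kinase yields pyruvate, and lactate dehydrogenase interconverts pyruvate and lactate. Several of these steps are served by paralogous genes. The fetal heart leans on GLUT1, hexokinase 1 and the lactate dehydrogenase A subunit, while the adult heart leans on GLUT4, hexokinase 2, muscle phosphofructokinase and the lactate dehydrogenase B subunit. A shift back toward the fetal forms is a known feature of the overloaded heart.

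*Hk2* and *Ldha* are known target genes of the hypoxia-inducible factor HIF-1. Its binding core can read ACGTG or GCGTG, and only ACGTG was searched here. The stretch upstream of each gene is shown because both lie on the same pathway. Their log2 fold changes between the groups were unlike (-0.49 for *Hk2* and -0.09 for *Ldha*, with tests given below). *Ldhb*, the partner of *Ldha*, is shown as the comparison. RefSeq (GRCm38.p6) gave a promoter window for 9 of the 10 genes, all but *Slc2a4*. The letters below are the 250 bases before the start, read 5′ to 3′ on the strand of the gene, with ACGTG or its reverse complement CACGT in capitals. The 6 letters CACGTG, the E-box, hold both and were counted as 1 match.
*Hk2*, chr6:82774455-82774704, minus strand: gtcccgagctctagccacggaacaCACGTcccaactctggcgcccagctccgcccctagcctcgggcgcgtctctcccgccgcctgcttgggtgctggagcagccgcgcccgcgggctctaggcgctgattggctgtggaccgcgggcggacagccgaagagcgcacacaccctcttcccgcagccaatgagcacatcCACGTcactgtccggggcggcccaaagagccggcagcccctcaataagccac
*Ldha*, chr7:46845554-46845803, plus strand, the first of 2 starts: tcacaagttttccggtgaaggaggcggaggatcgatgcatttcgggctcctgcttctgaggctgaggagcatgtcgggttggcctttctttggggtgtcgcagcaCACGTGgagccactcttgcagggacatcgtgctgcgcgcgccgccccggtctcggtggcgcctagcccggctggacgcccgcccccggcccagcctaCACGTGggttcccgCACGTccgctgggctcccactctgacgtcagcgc
*Ldhb*, chr6:142507958-142508207, minus strand: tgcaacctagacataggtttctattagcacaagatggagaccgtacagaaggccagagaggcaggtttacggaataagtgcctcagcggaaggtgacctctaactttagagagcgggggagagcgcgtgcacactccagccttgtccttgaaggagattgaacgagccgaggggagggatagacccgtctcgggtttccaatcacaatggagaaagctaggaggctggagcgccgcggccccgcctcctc
ACGTG, on either strand, occurred 2 times before *Hk2* and 3 times before the first start of *Ldha*, where 2 of the 3 matches were E-boxes. The window of the other *Ldha* start, not shown, held no match. ACGTG did not occur in the window of *Ldhb*, but that window holds GCGTG, a form that was not counted. Over the 32851 windows of the same length, 16.6% held ACGTG on either strand and 1.95% held 2 or more matches. Of the 17 windows of the 9 genes, 8 held it, and they belong to 6 genes. A match describes letters in this window and shows no binding in these hearts.

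One library has to be set out before the groups are compared. TAC replicate 3 lay apart from TAC replicates 1 and 2 on the first principal component of all genes (46.8% of the variance), at 16.1 against -45.7 and -56.0, while the 4 TAC + EMPA libraries lay between 18.9 and 24.3. For 7 of the 10 genes its log2 value was closer to that of the TAC + EMPA group than to the average of TAC replicates 1 and 2, and this held for 76.9% of all genes tested. The group comparisons are therefore given with and without it. Variation among TAC hearts and an error in the label or handling of this library cannot be told apart, so it is called by its label throughout. TAC + EMPA replicate 4 held transcripts of fast skeletal muscle (*Myh4* at 27.8 FPKM, at most 0.346 in any other library) and had a summed level of 8 hepatocyte genes of 74.3 FPKM, at most 15.7 in any other. The summed FPKM of 10 endothelial markers ran from 1353 to 2921 in the TAC group and from 1086 to 1303 in the TAC + EMPA group, and that of 9 cardiomyocyte markers from 66717 to 81496 and from 64362 to 71741, where *Myh6* is listed at 0 in TAC + EMPA replicate 1 with a status of too many fragments for an estimate. The summed FPKM of 8 fibroblast markers ran from 618 to 652 and from 503 to 613. Values were lower for 7 of the 8 fibroblast markers, with no overlap for 3, and for all 10 endothelial markers, with no overlap for 6. Of all genes tested, 10.7% had every TAC + EMPA library below every TAC library. In whole tissue, fewer cells of a type and less RNA per cell cannot be told apart. The differences also moved with exon length. The median of TAC + EMPA minus TAC was -0.14 on the log2 scale over the 3095 shortest genes (up to 2434 bases) and 0.16 over the 3093 longest (from 6619 bases). It was -0.18 and 0.16 for TAC replicate 3 minus TAC replicates 1 and 2, and -0.02 and 0.04 for TAC + EMPA minus TAC replicate 3. Among the 10 genes, *Ldhb* has the shortest exons (1570 bases in all) and *Pfkp* the longest (13401 bases). With a correction for exon length no gene of the 10 passed the limma threshold, and the log2 fold changes that moved included those of *Pfkp* (from -0.26 to -0.46), *Hk1* (from 0.39 to 0.24) and *Ldhb* (from -0.23 to -0.10). The part of the cell markers in the results below was not tested.

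With all 7 libraries, none of the 10 genes passed the limma test (adjusted p from 0.115 to 0.475), as 0% of all genes tested did in either direction. The mean was higher in the TAC + EMPA group for 6 genes and lower for 4 (of which *Ldha* and *Ldhb* turned to 0.01 and 0.06 on the log2 scale under quantile normalization), with a median log2 fold change of 0.31 (0.03 over all genes tested). Before adjustment, 5 genes were higher and 1 was lower with a limma p under 0.05, against 19.0% and 14.7% of all genes. Every TAC + EMPA library lay above every TAC library for *Slc2a1* and *Pfkm* and below for *Pfkp*, against 11.5% and 10.7% of all genes. Without TAC replicate 3, 6 genes were higher and 2 lower at an adjusted p under 0.05, where 29.8% and 23.6% of all genes were. These counts were 6 and 2 also when TAC + EMPA replicate 4 was left out as well, a setting chosen after seeing the data. In that setting 3761 of the 12391 genes tested were higher and 2957 lower.

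**Figure D1:**
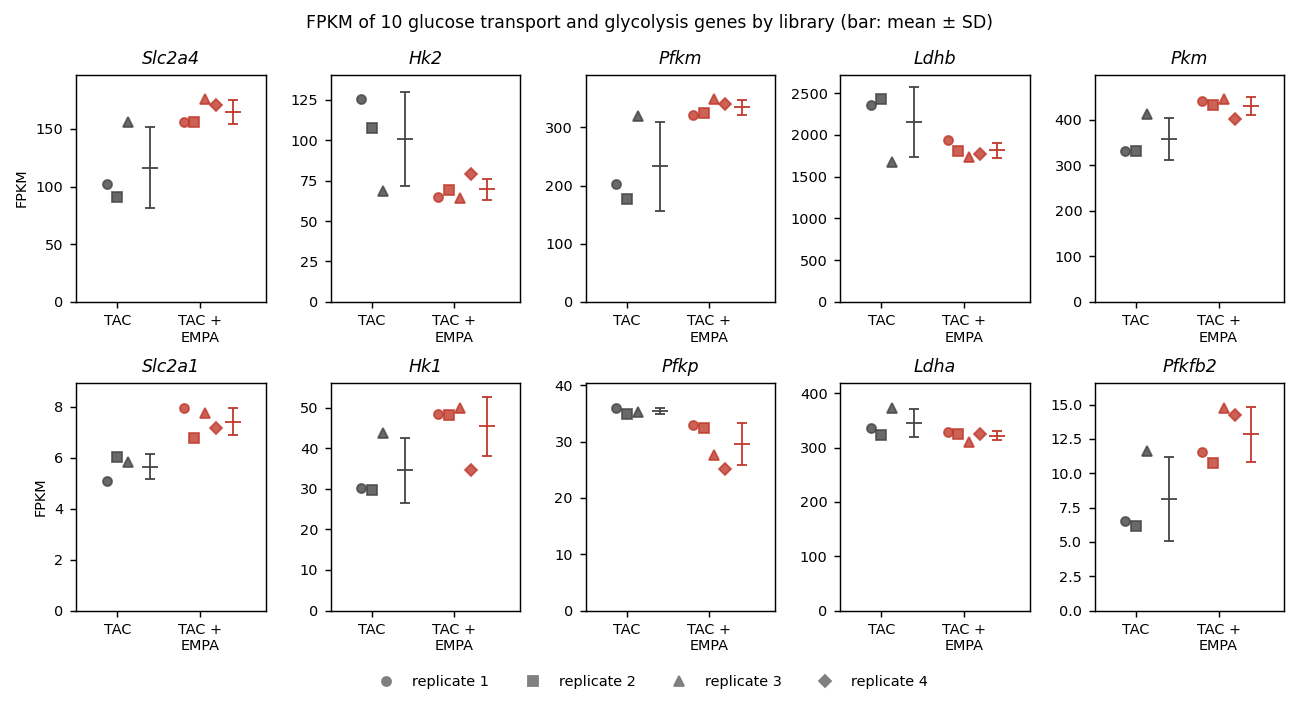
FPKM (y axis, from 0) of the 10 genes in each library, TAC in gray and TAC + EMPA in red, with symbols for the replicate number and bars for mean ± SD. TAC replicate 3 (gray triangle) sits at the level of the red symbols for *Slc2a4*, *Pfkm* and *Hk2* (156, 320 and 68.8 FPKM), whereas for *Pfkp* it sits with the other TAC libraries (35.3 FPKM).

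The gene of the insulin-responsive transporter GLUT4, *Slc2a4* (chr11:69942539-69948188), was the most abundant glucose transporter transcript. Its level was 102, 90.8 and 156 FPKM in TAC replicates 1 to 3 and 156, 156, 176 and 171 FPKM in TAC + EMPA replicates 1 to 4. The groups met at 156 FPKM, the value of TAC replicate 3 and of the lowest TAC + EMPA libraries. The means were 116 ± 34.9 (SD, n = 3) and 165 ± 10.5 (SD, n = 4), a log2 fold change of 0.53 ± 0.19 (SE) with a limma adjusted p of 0.118. Without TAC replicate 3 the log2 fold change was 0.76 with a limma adjusted p of 0.000740. *Slc2a4* made up 84.97% ± 1.94 (SD, n = 3) of the FPKM of 12 glucose transporter genes in the TAC libraries and 86.26% ± 0.97 (SD, n = 4) in the TAC + EMPA libraries, while the sum of the 12 ran from 109 to 180 FPKM and from 179 to 206 FPKM.

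*Slc2a1*, which encodes the basal transporter GLUT1 (chr4:119108711-119137983), was expressed far below *Slc2a4*, and its groups did not overlap. It was measured at 5.09, 6.02 and 5.81 FPKM in the TAC libraries and at 7.96, 6.79, 7.76 and 7.15 FPKM in the TAC + EMPA libraries. The means were 5.64 ± 0.492 (SD, n = 3) and 7.41 ± 0.543 (SD, n = 4). Here TAC replicate 3 lay between its 2 fellow TAC libraries. The log2 fold change was 0.34 ± 0.09 (SE) with a limma adjusted p of 0.115, and 0.36 with an adjusted p of 0.0198 without that library. The TAC + EMPA mean exceeded TAC replicate 3 alone by 0.30 on the log2 scale for *Slc2a1*, compared with 0.07 for *Slc2a4*.

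Of the other 10 glucose transporter genes, 3 had a mean of at least 1 FPKM. *Slc2a8*, the gene of the intracellular transporter GLUT8, was at 10.1 FPKM in the TAC group and 14.5 FPKM in the TAC + EMPA group, with a log2 fold change of 0.49 and a limma adjusted p of 0.150 (0.68 and 0.0195 without TAC replicate 3). *Slc2a12*, which encodes GLUT12, stood at 0.929 and 1.70 FPKM (log2 fold change 0.50, limma adjusted p = 0.150, and 0.72 with 0.0137 without that library). *Slc2a9*, the gene of a urate transporter, was at 1.38 and 0.902 FPKM, with every TAC + EMPA library below every TAC library and a limma adjusted p of 0.168 (0.0647 without that library). The remaining 7 had means under 1 FPKM, and *Slc2a7* was listed at 0 in every library. Exons of *Slc2a12* overlap those of *Tbpl1* on the other strand, which had a mean of 7.88 FPKM over all libraries. Whether the counting used the strand is not given in the sources used here. The median log2 fold change over the 5 tested transporter genes was 0.49, and 0.68 without TAC replicate 3.

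The hexokinase genes had mean differences of opposite sign, and neither passed the test with all 7 libraries. *Hk2* (chr6:82725025-82774454), whose product is the insulin-regulated hexokinase of adult muscle, had 126, 107 and 68.8 FPKM in the TAC libraries. It had 65.1, 69.5, 64.5 and 79.1 FPKM in the TAC + EMPA libraries, so TAC replicate 3 fell among them. The means were 101 ± 29.0 (SD, n = 3) and 69.5 ± 6.75 (SD, n = 4). The log2 fold change was -0.49 ± 0.20 (SE) with a limma adjusted p of 0.144, and -0.74 with an adjusted p of 0.00212 without TAC replicate 3.

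*Hk1* (chr10:62268855-62379908), which encodes the widely expressed hexokinase, had 30.3, 29.7 and 43.9 FPKM in the TAC libraries and 48.6, 48.3, 50.0 and 34.7 FPKM in the TAC + EMPA libraries. Its groups overlapped through TAC replicate 3 and TAC + EMPA replicate 4, the library with skeletal muscle transcripts. The means were 34.6 ± 8.02 (SD, n = 3) and 45.4 ± 7.18 (SD, n = 4), and the log2 fold change was 0.39 ± 0.19 (SE) with a limma adjusted p of 0.181. Without TAC replicate 3 the log2 fold change was 0.57 (limma adjusted p = 0.0219). With TAC + EMPA replicate 4 left out as well it was 0.69, a value with no weight as a test, since these are the libraries through which the groups overlapped and the setting was chosen after seeing the data. The sum over the 4 genes *Hk1*, *Hk2*, *Hk3* and *Hkdc1* was 136 ± 21.9 FPKM (SD, n = 3) for TAC and 115 ± 2.14 FPKM (SD, n = 4) for TAC + EMPA.

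*Pfkm* (chr15:98092589-98132451), the gene of the muscle subunit, was at 202, 177 and 320 FPKM in the TAC libraries and at 322, 325, 349 and 341 FPKM in the TAC + EMPA libraries. All 4 TAC + EMPA values exceeded all 3 TAC values, but the lowest of them was 322 FPKM and TAC replicate 3 was at 320 FPKM. The means were 233 ± 76.6 (SD, n = 3) and 334 ± 12.8 (SD, n = 4), a log2 fold change of 0.57 ± 0.20 (SE) with a limma adjusted p of 0.118. Without TAC replicate 3 the log2 fold change was 0.82 with a limma adjusted p of 0.000427, the smallest among the 10 genes.

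The platelet-type subunit is encoded by *Pfkp* (chr13:6579768-6648777). Its level was 36.0, 34.99 and 35.3 FPKM in the TAC libraries and 32.9, 32.5, 27.6 and 25.2 FPKM in the TAC + EMPA libraries, so the groups did not overlap and TAC replicate 3 kept with its own group. The means were 35.4 ± 0.538 (SD, n = 3) and 29.6 ± 3.74 (SD, n = 4). The log2 fold change was -0.26 ± 0.12 (SE) with a limma adjusted p of 0.158, and -0.27 with an adjusted p of 0.107 without TAC replicate 3. Its exons overlap those of *Pitrm1* on the other strand, which was at 12.9 ± 2.08 FPKM (SD, n = 3) and 17.6 ± 1.46 FPKM (SD, n = 4), and although the library kit keeps strand, whether the counting used it is not given in the sources used here. The liver subunit gene *Pfkl* was at 30.5 and 34.9 FPKM (log2 fold change 0.20, limma adjusted p = 0.293, and 0.35 with 0.00755 without TAC replicate 3). Within the 3 phosphofructokinase genes, *Pfkm* accounted for 77.2% ± 4.05 (SD, n = 3) of the FPKM in the TAC group and 83.8% ± 1.29 (SD, n = 4) for TAC + EMPA, and *Pfkp* for 12.4% ± 2.99 and 7.43% ± 1.09.

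*Pfkfb2* (chr1:130689182-130729253) encodes the cardiac form of the enzyme that makes and breaks down fructose 2,6-bisphosphate, the activator of phosphofructokinase. It had the largest log2 fold change of the 10 genes in the fit of all 7 libraries, though not under quantile normalization (0.59, with *Pfkm* at 0.62) or the correction for exon length (0.51, with *Pfkm* at 0.55 and *Hk2* at -0.59). Its level was 6.55, 6.12 and 11.6 FPKM in the TAC libraries and 11.5, 10.7, 14.8 and 14.2 FPKM in the TAC + EMPA libraries, with TAC replicate 3 inside the range of the latter. The means were 8.09 ± 3.05 (SD, n = 3) and 12.8 ± 2.00 (SD, n = 4), and the log2 fold change was 0.64 ± 0.22 (SE) with a limma adjusted p of 0.117 (0.90 and 0.00252 without TAC replicate 3). *Pfkfb3*, the paralog with the highest kinase relative to phosphatase activity, had lower values in every TAC + EMPA library. It was at 4.46, 4.02 and 3.32 FPKM in the TAC libraries and at 2.64, 2.29, 2.41 and 2.88 FPKM in the TAC + EMPA libraries, with a log2 fold change of -0.47 and a limma adjusted p of 0.115 (-0.56 and 0.00413 without TAC replicate 3). *Pfkfb2* made up 34.0%, 30.2% and 49.1% of the FPKM of the 4 paralogs in the TAC libraries and between 50.1% and 57.6% in the TAC + EMPA libraries. *Pfkfb1* was at 7.68 and 7.54 FPKM and *Pfkfb4* at 1.34 and 1.42 FPKM, with limma adjusted p-values of 0.879 and 0.784 (0.810 and 0.894 without TAC replicate 3).

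**Figure D2:**
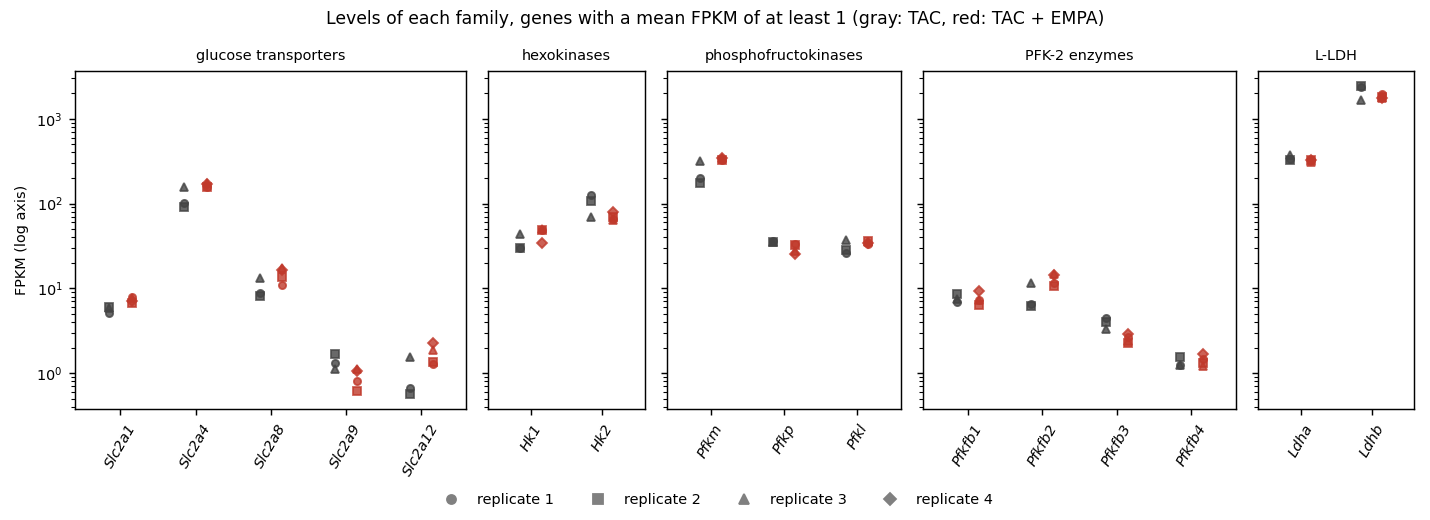
FPKM on a log axis for genes of 5 families with a mean of at least 1 FPKM, TAC libraries in gray and TAC + EMPA libraries in red, with symbols for the replicate number. *Slc2a4*, *Hk2*, *Pfkm* and *Ldhb* lie at the top of their families in both groups, while the order of *Pfkfb1* and *Pfkfb2* is not the same in all libraries (7.68 and 8.09 FPKM on average in the TAC group, 7.54 and 12.8 FPKM in the TAC + EMPA group).

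Pyruvate kinase came from *Pkm* alone (chr9:59656368-59679375), with *Pklr*, the liver and red cell gene, listed at 0 in every library. *Pkm* was at 331, 332 and 412 FPKM in the TAC libraries and at 441, 432, 445 and 402 FPKM in the TAC + EMPA libraries. The groups overlapped between TAC replicate 3 and TAC + EMPA replicate 4. The means were 358 ± 46.3 (SD, n = 3) and 430 ± 19.5 (SD, n = 4), a log2 fold change of 0.27 ± 0.11 (SE) with a limma adjusted p of 0.143 (0.37 and 0.00316 without TAC replicate 3). *Pkm* gives rise to the M1 and M2 enzymes by alternative splicing, and values per gene do not separate these.

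*Ldhb* (chr6:142490249-142507957), whose heart-type subunit of lactate dehydrogenase favours lactate use, was the most abundant of the 10 genes in FPKM. It was at 2357, 2432 and 1672 FPKM in the TAC libraries and at 1941, 1808, 1735 and 1774 FPKM in the TAC + EMPA libraries. TAC replicate 3 was the lowest of all 7 libraries, and the other TAC libraries were the highest. The means were 2154 ± 419 (SD, n = 3) and 1815 ± 89.6 (SD, n = 4), a log2 fold change of -0.23 ± 0.15 (SE) with a limma adjusted p of 0.285. Without TAC replicate 3 the log2 fold change was -0.40 with a limma adjusted p of 0.00265, but under quantile normalization of all 7 libraries it turned to 0.06.

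*Ldha* (chr7:46841475-46855627), the gene of the muscle-type subunit that favours lactate formation, was at 336, 324 and 374 FPKM in the TAC libraries and at 329, 324, 310 and 326 FPKM in the TAC + EMPA libraries. The groups overlapped, with TAC replicate 3 the highest. The means were 345 ± 25.8 (SD, n = 3) and 322 ± 8.22 (SD, n = 4), and the log2 fold change was -0.09 ± 0.09 (SE) with a limma adjusted p of 0.475, and -0.03 with an adjusted p of 0.614 without TAC replicate 3. Its sign turned under quantile normalization (0.01). Processed copies of *Ldha* elsewhere in the genome can share its fragments. Among the paralogs, *Ldhd*, which encodes a mitochondrial enzyme for D-lactate, was at 16.0 and 22.1 FPKM, and all 4 TAC + EMPA libraries exceeded all 3 TAC libraries (log2 fold change 0.47, limma adjusted p = 0.117, and 0.67 with 0.000752 without TAC replicate 3). Over the 6 tested paralogs of the enzymes, the median log2 fold change was 0.12, and 0.04 without that library. Exons of *Ldhd* overlap those of *Znrf1* on the other strand, which was at 29.8 FPKM in the TAC group and 25.7 FPKM in the TAC + EMPA group. As for *Pfkp*, whether the counting used the strand is not given.

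**Figure D3:**
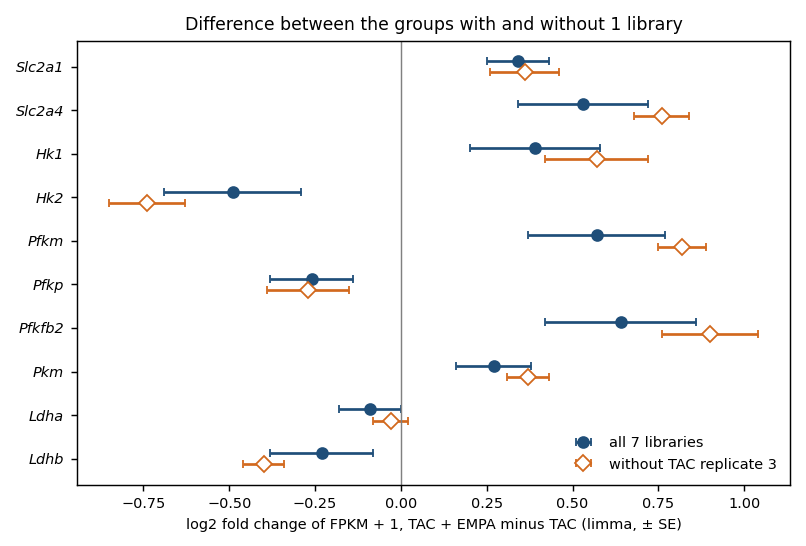
Log2 fold change of FPKM + 1 (x axis, TAC + EMPA minus TAC, limma, ± SE) of the 10 genes with all 7 libraries (filled circles) and without TAC replicate 3 (open diamonds). Leaving the library out moves *Pfkm* from 0.57 to 0.82 and *Hk2* from -0.49 to -0.74, and moves *Slc2a1* only from 0.34 to 0.36 and *Pfkp* from -0.26 to -0.27.

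Whether the balance of adult-type and fetal-type isoforms differed between the groups was examined with the ratio of the adult-type to the fetal-type gene within each library. For phosphofructokinase, *Pfkp* was taken as the fetal-type partner of *Pfkm* for this purpose, and *Pfkl* was left out of the ratio. The ratios and shares printed for each library are of the FPKM as given, while 1 FPKM was added to each gene before the log2 ratios were taken. The log2 ratios were compared by an exact two-sided permutation test over the 35 ways to assign the 7 libraries to groups of 3 and 4. Its smallest possible p is 0.0286, and p-values were adjusted over the 4 ratios. The adult-type gene was the more abundant of its pair in every library.

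*Pfkm* exceeded *Pfkp* by 5.62, 5.05 and 9.07 times in the TAC libraries and by 9.79, 10.01, 12.6 and 13.5 times in the TAC + EMPA libraries. This was the only pair of the 4 whose groups did not overlap. The adult share of the pair was 86.1% ± 3.48 (SD, n = 3) and 91.9% ± 1.21 (SD, n = 4), and the log2 ratio differed by 0.83 (exact p = 0.0286, adjusted p = 0.114).

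For the hexokinases the values pointed the other way. The ratio of *Hk2* to *Hk1* was 4.15, 3.62 and 1.57 in the TAC libraries and 1.34, 1.44, 1.29 and 2.28 in the TAC + EMPA libraries, with an overlap through TAC replicate 3 and TAC + EMPA replicate 4. The adult share was 73.3% ± 10.68 (SD, n = 3) and 60.5% ± 6.10 (SD, n = 4), and the log2 ratio differed by -0.88 (exact p = 0.114, adjusted p = 0.229).

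The transporter and lactate dehydrogenase pairs overlapped between the groups. *Slc2a4* exceeded *Slc2a1* by 20.1, 15.1 and 26.9 times in the TAC libraries and by 19.6, 22.9, 22.7 and 23.9 times in the TAC + EMPA libraries (log2 difference 0.19, exact p = 0.457, adjusted p = 0.457). With 0.1 FPKM added in place of 1, the transporter log2 difference was 0.15 (exact test, adjusted p = 0.571). *Ldhb* exceeded *Ldha* by 7.02, 7.51 and 4.48 times and by 5.90, 5.58, 5.59 and 5.45 times (log2 difference -0.13, exact p = 0.457, adjusted p = 0.457). TAC replicate 3 held the highest transporter ratio and the lowest lactate dehydrogenase ratio of all libraries. Without it the log2 differences were 0.40 for the transporters, -1.30 for the hexokinases, 1.08 for phosphofructokinase and -0.37 for lactate dehydrogenase, each with an exact p of 0.0667, the smallest that 15 assignments allow. No ratio passed the adjusted threshold. With 4 ratios adjusted together, a lone ratio at the smallest exact p has an adjusted p of 0.114, so it could not pass by itself. The differences were positive for phosphofructokinase and negative for the hexokinases whichever library was left out, whereas those of the transporters and lactate dehydrogenase changed sign without TAC replicate 2 (-0.01 and 0.01).

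**Figure D4:**
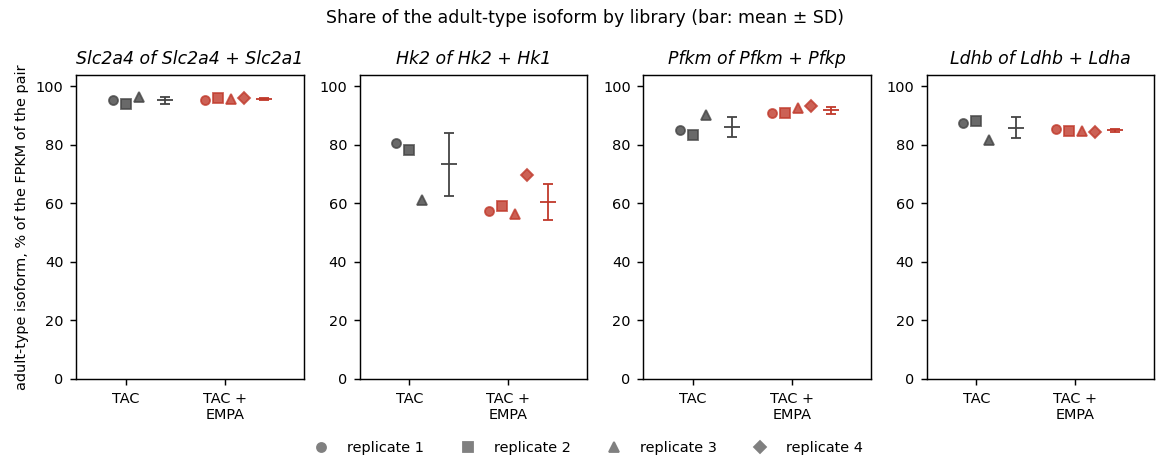
Share of the adult-type isoform in the FPKM of its pair (y axis, percent, from 0) in each library, TAC in gray and TAC + EMPA in red, with bars for mean ± SD. The *Pfkm* share is at least 90.7% in all TAC + EMPA libraries and at most 90.1% in the TAC libraries, while the *Hk2* share spreads from 56.3% to 80.6% over the 7 libraries.

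The remaining enzymes of glycolysis and its side branches showed no common direction. Of 21 genes, 16 were tested, 8 had higher and 8 lower values in the TAC + EMPA group, 2 higher genes and 1 lower gene had a limma p under 0.05 before adjustment (19.0% and 14.7% of all genes tested), and none passed the limma test. Their median log2 fold change was 0.00 (0.03 over all genes tested). It was 0.05 without TAC replicate 3, and 4 genes were higher and 2 lower at a limma adjusted p under 0.05, beside 29.8% and 23.6% of all genes. The smallest p-values on the higher side belonged to the phosphoglucomutase gene *Pgm2* (log2 fold change 0.49, limma adjusted p = 0.138), to *Bpgm*, which encodes bisphosphoglycerate mutase (0.49, adjusted p = 0.142), and to *Tpi1*, the gene of triosephosphate isomerase (0.28, adjusted p = 0.162). On the lower side were *Pgm1*, another phosphoglucomutase gene (-0.40, limma adjusted p = 0.134), the muscle phosphoglycerate mutase gene *Pgam2* (-0.28, adjusted p = 0.225) and *Fbp2*, the gene of muscle fructose bisphosphatase (-0.25, adjusted p = 0.380). Leaving out TAC replicate 3, the log2 fold changes were 0.74, 0.74, 0.40, -0.57, -0.42 and -0.12 in this order, with limma adjusted p-values of 0.000555, 0.00286, 0.00710, 0.00722, 0.0247 and 0.659. Enolase 3 (*Eno3*), the muscle enolase, had a mean of 986 FPKM in either group. The symbols *Pgm1* and *Pgm2* are used as the deposited data give them. Of the pair, *Pgm2* was the more abundant in every library, with a mean of 93.4 FPKM over all libraries. Whether other annotations give these symbols to the same genes was not tested.

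Genes of GLUT4 trafficking and transcription had a median log2 fold change of 0.23, with 10 of 23 tested genes higher and 3 lower before adjustment (limma p under 0.05, reached by 19.0% and 14.7% of all genes) and none past the limma threshold. The median was 0.17 without TAC replicate 3, and 11 genes were higher and 5 lower at a limma adjusted p under 0.05, beside 29.8% and 23.6% of all genes. *Lnpep*, the gene of the aminopeptidase that travels with GLUT4 vesicles, was at 3.38, 3.78 and 10.9 FPKM and between 11.6 and 15.1 FPKM (log2 fold change 1.14, limma adjusted p = 0.115). *Klf15*, a transcription factor gene for which *Slc2a4* is a known target, had a log2 fold change of 0.49 (limma adjusted p = 0.115). *Aspscr1* encodes TUG, which tethers GLUT4 vesicles inside the cell, and all its TAC + EMPA values were below its TAC values (log2 fold change -0.35, limma adjusted p = 0.115). *Tbc1d1*, the gene of a Rab GTPase-activating protein that restrains GLUT4 vesicles, did the same (-0.32, limma adjusted p = 0.117). *Arrdc4*, the gene of an arrestin-like inhibitor of glucose uptake, had a log2 fold change of -0.38 (limma adjusted p = 0.139). The log2 fold changes of these 5 genes without TAC replicate 3 were 1.60, 0.57, -0.42, -0.38 and -0.51 in this order, with limma adjusted p-values of 0.000291, 0.0144, 0.00758, 0.0177 and 0.0198. *Tbc1d4*, the paralog of *Tbc1d1*, went the other way (0.59, limma adjusted p = 0.195, and 0.96 with 0.00384 without that library). *Txnip*, a paralog of *Arrdc4*, was at -0.09 (limma adjusted p = 0.766, and -0.27 with 0.220 without that library). Both were named after their values were seen.

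A list of 13 metabolic regulators held hypoxia-inducible factors, MYC and its relatives, and genes of PGC-1, the estrogen-related receptors and the energy sensor AMPK. Of these, 12 were on the higher side in the TAC + EMPA group, with a median log2 fold change of 0.36. The 5 with a limma p under 0.05 before adjustment (19.0% of all genes on the higher side) were *Arnt*, *Myc*, *Ppargc1a*, *Esrrg* and *Prkaa2*, of which the last 2 were named after their values were seen. *Esrrg* encodes an estrogen-related receptor and *Prkaa2* a catalytic subunit of AMPK, so 3 of the 5 belong to the PGC-1, receptor and AMPK genes. The median without TAC replicate 3 was 0.50, and 7 genes were higher and 1 lower at a limma adjusted p under 0.05, beside 29.8% and 23.6% of all genes. *Ppargc1a*, the gene of the mitochondrial coactivator PGC-1α, was at 5.12, 4.01 and 16.7 FPKM in the TAC libraries and between 17.2 and 28.7 FPKM in the TAC + EMPA libraries (log2 fold change 1.39, limma adjusted p = 0.116). *Arnt*, which encodes the partner of the hypoxia-inducible factors, had a log2 fold change of 0.36 (limma adjusted p = 0.117). *Myc*, a transcriptional activator of *Ldha* and other glycolysis genes, was at 2.28, 2.79 and 2.59 FPKM and at 4.87, 4.67, 3.04 and 3.56 FPKM, with no overlap (log2 fold change 0.49, limma adjusted p = 0.117). The lower value was that of *Epas1*, the gene of HIF-2α, which is abundant in endothelium (-0.33, limma adjusted p = 0.283). For *Ppargc1a*, *Arnt*, *Myc* and *Epas1* the log2 fold changes without TAC replicate 3 were 1.95, 0.47, 0.50 and -0.60, with limma adjusted p-values of 0.000726, 0.00301, 0.0527 and 0.00357. In these hearts all 10 of the endothelial markers had lower values in the TAC + EMPA group, with a median log2 fold change of -0.70 (-0.94 without TAC replicate 3). A link between these markers and the value of *Epas1* was not tested.

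Finally, the genes with the most similar profiles over the 7 libraries were listed for 4 of the 10 genes, by the root mean square difference of the centred log2 values, as a description. For *Slc2a1* these were *Fbxo28* (0.027), *Cipc* (0.036) and *Abraxas2* (0.041). *Slc2a4* was nearest to *Pygo1* (0.025), *Wdr33* (0.035) and *Ttc19* (0.036). *Hk2* was nearest to *Atp5g3* (0.049), *Mat2a* (0.055) and *Atp5l* (0.059), of which *Atp5g3* and *Atp5l* encode subunits of the mitochondrial ATP synthase. The nearest profiles to *Pfkp* were those of *Gm20457* (0.048), *Alkbh2* (0.055) and *Anxa5* (0.059).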

How the data were processed

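The deposited table gives FPKM per gene and library. Per the study's methods, the authors used TopHat2 2.0.13 for mapping (GRCm38) and Cuffdiff of Cufflinks 2.2.1 for the FPKM. The methods speak of 4 libraries and 3 groups, and the labels, which were followed, give 7 libraries in 2 groups. The study states that its samples were biologically different. The authors' p-values, q-values and fold changes and their 5 tables of enriched terms were not used. Total fragments are not given. The commonest ratio of low values between libraries put the relative depth between 1.0 and 2.24, and 20250 to 22956 genes were above 0 per library.

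Values were transformed to log2(FPKM + 1), so that changes of low genes are understated, and genes averaging 1 FPKM or more were fitted with limma 3.58.1 in R 4.3.3 (two-sided, trended prior variance, Benjamini-Hochberg over all 12391 genes, threshold 0.05). Ratios were compared with the exact permutation test, and lists by counts and medians only. The limma fit was checked on simulated data in which no library stood apart, unlike TAC replicate 3 here. The genes and lists were chosen with earlier results of these data known. Named beside the 10 genes were paralogs with a mean of at least 1 FPKM, the 3 smallest p-values in each direction of 3 lists, and the 3 nearest profiles of 4 genes. The results of some genes that this rule names are left out, and some further genes were named after their values were seen. Positions are from GENCODE M21 (GRCm38). Alternatives covered the pseudocount, the filter, scaling, a replicate block, the variance prior, library weights and each library left out. Corrections for exon length (loess, span 0.5), removal of genes with status HIDATA or FAIL, and removal of TAC replicate 3 with TAC + EMPA replicate 4 were chosen after seeing the data. Python 3.11.15, pandas 2.3.3 and matplotlib 3.10.9 were used.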

Additional observations from a re-analysis of the deposited data

Results flagged for a closer look

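In the 4 TAC + EMPA libraries, 28 values were examined for a library far from the others, and 2 stood out, where chance gives about 1 in 20. *Hk1* was low in TAC + EMPA replicate 4 (34.7 FPKM, against 48.3 to 50.0 FPKM in the other 3), with a gap of 0.887 of the range of the group. The summed level of the hepatocyte markers was high in the same library (74.3 FPKM, against 5.22 to 6.99 FPKM), with a gap of 0.974 of the range.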

How the results depend on the processing

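Under 18 alternatives for each of the 10 genes, 178 of 180 log2 fold changes kept their direction. The exceptions came with quantile normalization, where *Ldha* was at 0.01 and *Ldhb* at 0.06. With library weights, and with TAC replicate 3 and TAC + EMPA replicate 4 both left out, 6 genes were higher and 2 lower at a limma adjusted p under 0.05. Over all 12391 genes, 3310 were higher and 2551 lower with library weights, and 3761 and 2957 with both libraries left out. With 1 library left out, the counts among the 10 genes ran from 0 to 6 and from 0 to 2. Only the removal of TAC replicate 3 gave any, beside 29.8% and 23.6% of all genes. The library weights gave TAC replicate 3 the weight 0.121, against 0.801 to 3.52 for the other libraries. The cause of the moves under the correction for exon length was not tested. With 1 library left out, the log2 difference ran from -0.01 to 0.40 for *Slc2a4*/*Slc2a1*, from -1.30 to -0.61 for *Hk2*/*Hk1*, from 0.66 to 1.08 for *Pfkm*/*Pfkp* and from -0.37 to 0.01 for *Ldhb*/*Ldha*. Both sign changes came without TAC replicate 2.

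To look for pairs, the mean of its group was taken from each log2 value, gene by gene, and these deviations were correlated between libraries. They are not correlations of the expression levels themselves. Libraries with the same replicate number had correlations of 0.104, 0.084 and -0.029, and those with unlike numbers ran from -0.169 to 0.06. The values for replicates 1 and 2 were thus the highest, though small. Both replicate 1 libraries had a relative depth of 2.24. The numbers were not taken as pairs, and whether libraries of the same number were handled together was not tested. With the replicate number as a block, 0 of the 10 genes passed (limma adjusted p from 0.194 to 0.613), and the ratios differed by 0.16, -1.06, 0.75 and -0.12 in the same order.

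The total depth is unknown, so no counting interval can be given, and 3 TAC libraries, of which 1 stands apart, limit every comparison.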
